A study of Mus musculus with 6 samples.

Results

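The Pim kinase family of mouse embryonic stem cells, Pim1, Pim2 and Pim3, was described across 6 Affymetrix arrays of total RNA, 3 of cells given CHIR99021 and 3 of cells given XAV939. The members were named by symbol and found through the platform's probe annotation, which gave 1 single-gene probe set for each of the 3, among 19937 genes with such a probe set. The family was selected on the log2 difference between the treatments on these same arrays, where Pim2 was among the lowest, so the members' own levels and differences are a description and carry no p-value. CHIR99021 blocks the kinase GSK3, which otherwise marks β-catenin for destruction, and was given at 3 µM for 24 h. XAV939 blocks tankyrase, so that Axin persists and β-catenin is destroyed, and was also given for 24 h. Its dose is 3 µM according to the sample labels, while the treatment protocol has 1 µM. Both groups were the V6.5 line Ctnnb1-BioFLneo;BirA, whose endogenous β-catenin gene carries a biotin and FLAG tag, so every array came from tagged cells of 1 line. All cells were kept in medium with serum and the cytokine LIF, on feeder cells from DR4 mice. No untreated arrays were analysed here, so a difference cannot be assigned to one compound. Nothing in the labels tells separate cultures from repeat samples of 1 culture, and the tests below measure only the spread between these arrays.

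PIM kinases are serine/threonine kinases that lack a regulatory domain and are active as soon as they are made, so their activity follows the amounts of their mRNAs and short-lived proteins. They phosphorylate regulators of survival, the cell cycle and translation, such as BAD, CDKN1B and EIF4EBP1, and overlap in this with AKT. Pim1 was first known as a common insertion site of Moloney leukaemia virus in mouse lymphoma. Pim genes are induced by cytokines through JAK and STAT factors, and in mouse embryonic stem cells Pim1 and Pim3 are known as targets of LIF and STAT3 that favour self-renewal.

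The 3 genes lie on different chromosomes of the GRCm38.p6 build, Pim1 at chr17:29490785-29496111, Pim2 at chrX:7878306-7883432 and Pim3 at chr15:88862194-88865726. The 250 bases before each annotated gene start, credited to RefSeq, are shown to compare the upstream regions of members whose differences on the arrays were unlike in size. They cover chr17:29490535-29490784, chrX:7878056-7878305 and chr15:88861944-88862193, all on the plus strand and written 5′ to 3′. Capitals mark exact matches, on either strand, to 4 motifs: ATCAAAG, a site of the TCF/LEF partners of β-catenin; ATGCAAAT, the octamer of POU factors such as OCT4; TTCNNNGAA, the site of STAT factors; and CACGTG, the E-box of MYC and related factors.
Pim2: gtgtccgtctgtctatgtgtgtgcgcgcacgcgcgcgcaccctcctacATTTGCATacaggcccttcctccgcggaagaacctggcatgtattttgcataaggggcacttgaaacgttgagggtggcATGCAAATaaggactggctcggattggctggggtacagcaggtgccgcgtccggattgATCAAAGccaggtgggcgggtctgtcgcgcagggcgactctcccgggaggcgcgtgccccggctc
Pim1: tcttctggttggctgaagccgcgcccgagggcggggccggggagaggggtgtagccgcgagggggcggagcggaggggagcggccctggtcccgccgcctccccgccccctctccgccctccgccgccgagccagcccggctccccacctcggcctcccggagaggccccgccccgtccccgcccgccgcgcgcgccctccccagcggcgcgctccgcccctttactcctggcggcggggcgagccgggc
Pim3: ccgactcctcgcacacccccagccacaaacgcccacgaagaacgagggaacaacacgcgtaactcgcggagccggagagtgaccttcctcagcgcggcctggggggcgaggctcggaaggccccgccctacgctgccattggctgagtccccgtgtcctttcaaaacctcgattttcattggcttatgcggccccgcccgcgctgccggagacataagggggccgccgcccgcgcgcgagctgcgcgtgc

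The Pim2 window held 3 matches. The octamer occurred 202 to 195 bases before the start, on the minus strand, and again 123 to 116 bases before it on the plus strand, and the TCF/LEF motif lay 65 to 59 bases before the start. The windows at the gene starts of Pim1 and Pim3 held none of these letters. Pim1 has a further annotated start inside the gene, and the 250 bases before that one held an E-box 58 to 53 bases upstream. No match overlapped another. Among 32851 windows of the same length, 3.21% held the TCF/LEF motif, 1.6% the octamer, 7.02% the STAT motif and 6.02% the E-box, and 0.0974% held 2 or more octamers. The gene-start windows differed in base composition, with 62% G and C and 22 CpG dinucleotides for Pim2, 82.4% and 36 for Pim1, and 68% and 31 for Pim3, against medians of 52.4% and 6 over all windows. The motifs were chosen after the sequences had been read, and a match describes the letters alone.

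**Figure D1:**
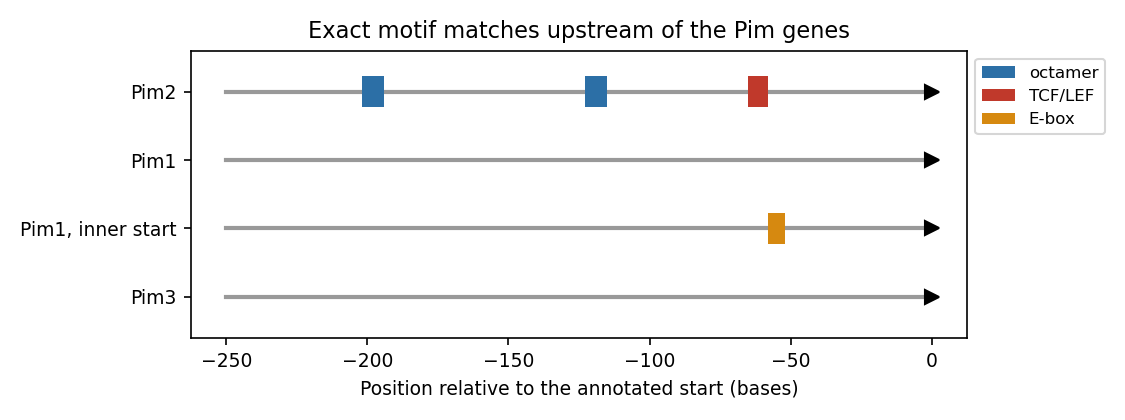
Exact motif matches (coloured bars) in the 250 bases before the annotated starts of the Pim genes, with position in bases relative to the start (arrowhead) on the horizontal axis. Pim2 has 2 octamers and 1 TCF/LEF match, the gene-start windows of Pim1 and Pim3 have none, and the window before the inner start of Pim1 has 1 E-box.

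Pim2, like Pim1 known from lymphoid tumours, is also a recognised transcript of the primed epiblast. On the log2 scale of the arrays, its level was 7.51, 7.71 and 7.51 with CHIR99021, against 9.77, 9.82 and 9.69 with XAV939. The groups were separated by a gap of 1.97, wider than the range within either group, 0.21 with CHIR99021 and 0.13 with XAV939. The means were 7.58 ± 0.12 with CHIR99021 and 9.76 ± 0.07 with XAV939 (SD, n = 3 each). The log2 difference, CHIR99021 minus XAV939, was -2.18 ± 0.07 (SE of the fit across all genes). Pim2 was thus 4.54-fold lower with CHIR99021, at 22% of its XAV939 level. In bulk RNA, fewer cells that express a gene and less of its RNA per cell cannot be told apart.

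Pim1, the founding member of the family, had log2 levels of 9.69, 9.68 and 9.85 with CHIR99021, against 10.12, 9.95 and 10.00 with XAV939. Its groups did not overlap, and the gap between them was 0.10, smaller than the range within CHIR99021 (0.16) or within XAV939 (0.18). Mean levels were 9.74 ± 0.09 with CHIR99021 and 10.02 ± 0.09 with XAV939 (SD, n = 3 each), and the difference was -0.28 ± 0.07 (SE). That is 1.22-fold lower with CHIR99021, or 82.2% of the XAV939 level.

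Pim3, the member that like Pim1 is tied to LIF and STAT3 in these cells, had log2 levels of 8.93, 8.95 and 8.93 with CHIR99021, against 9.29, 9.01 and 9.08 with XAV939. The CHIR99021 arrays lay within 0.022 of each other, while the XAV939 arrays spanned 0.27, with replicate 1 above replicates 2 and 3. The groups were 0.067 apart at their nearest. Means were 8.94 ± 0.01 with CHIR99021 and 9.13 ± 0.14 with XAV939 (SD, n = 3 each), a difference of -0.19 ± 0.07 (SE) and 1.14-fold lower with CHIR99021. Without XAV939 replicate 1 the difference of Pim3 was -0.11 ± 0.05.

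XAV939 replicate 1 was the highest of the 6 arrays for both Pim1 and Pim3, but not for Pim2. Across all genes it correlated with the other XAV939 arrays at r = 0.9971 and 0.9969, against 0.9986 between those 2, and within CHIR99021 the correlations were 0.9979 to 0.9987. Without it Pim1 differed by -0.23 ± 0.06 and Pim2 by -2.18 ± 0.08.

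**Figure D2:**
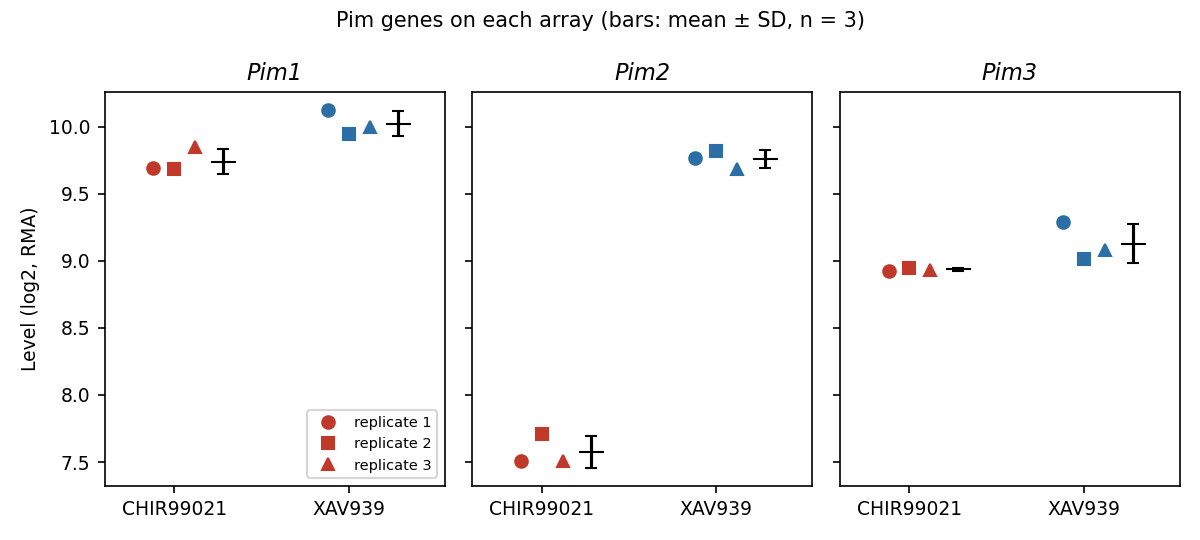
Log2 level of each Pim gene on each array (vertical axis), with CHIR99021 in red, XAV939 in blue, and replicates 1, 2 and 3 as circles, squares and triangles. Black bars give the mean ± SD of 3 arrays. The groups lie 1.97 apart for Pim2 and at most 0.10 apart for Pim1 and Pim3, and levels of different genes are not compared.

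All 3 members had a lower mean with CHIR99021, and the groups of all 3 did not overlap. Non-overlapping groups were found for 25.1% of all genes. In limma's fit across the 19937 genes, 2 of the 3, Pim1 and Pim2, passed an adjusted p of 0.05, beside 9.65% of all genes, of which 5.31% were higher and 4.34% lower. Because the family was picked with this contrast in view, nothing is read from those counts. On the log2 scale the Pim2 difference was 7.71 times that of Pim1 and 11.3 times that of Pim3, and the difference between members was not tested. Both divisors are small, and that of Pim3 was -0.11 without XAV939 replicate 1, so the ratios are imprecise.

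Among all genes ordered by log2 difference, Pim2 held place 3 from the lowest. Before it came Enpp3, an ectonucleotide pyrophosphatase (-2.79 ± 0.07), and Slc27a2, an acyl-CoA synthetase of very long fatty acids (-2.33 ± 0.06). After it came Otx2, a homeobox gene of the primed epiblast and anterior neural tissue (-2.14 ± 0.09), and Car4, a membrane-bound carbonic anhydrase (-1.67 ± 0.05). Pim2 was 1 of 4 genes at least 4-fold lower and of 24 at least 2-fold lower with CHIR99021 among those past the threshold. Pim1 and Pim3 held places 659 and 1253. An absolute difference as large as that of Pim1 was seen for 7.24% of all genes, and one as large as that of Pim3 for 13.6%. The mean levels of the 3 probe sets were 2.99 to 4.20 log2 units above the median of all probe sets, which was 5.68.

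**Figure D3:**
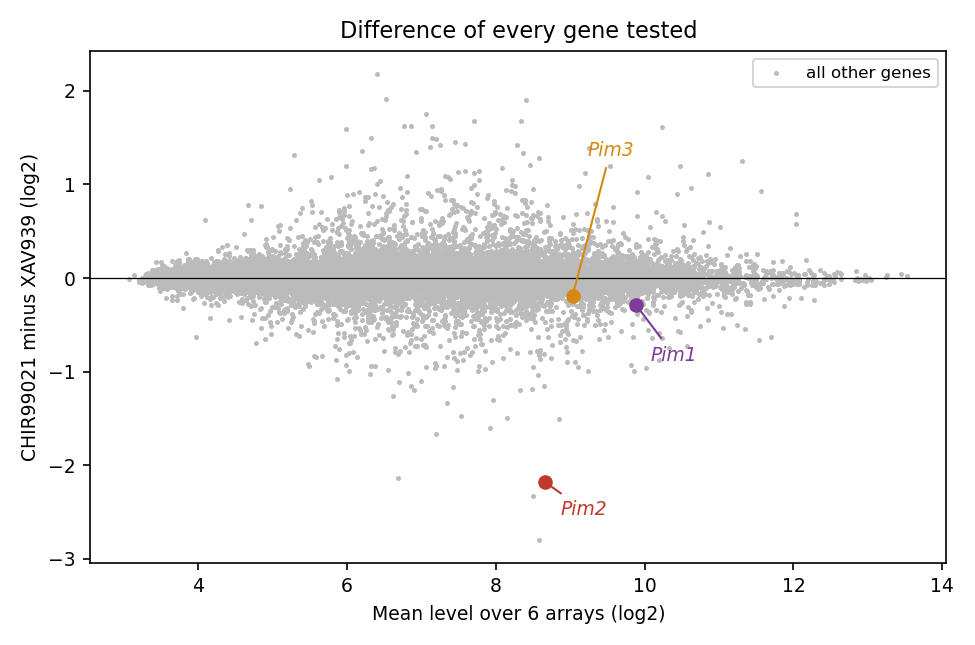
Log2 difference, CHIR99021 minus XAV939 (vertical axis), against mean log2 level over 6 arrays (horizontal axis) for 19937 genes in grey, with the Pim genes in colour. Pim2 lies at -2.18 near the lower edge of the plot, while Pim1 (-0.28) and Pim3 (-0.19) lie close to the main body of genes.

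The genes beside Pim2 on the X chromosome had small differences. The 3 nearest measured genes on either side were Gripap1, Kcnd1 and Otud5 before it and Slc35a2, Pqbp1 and Timm17b after it. Otud5, a deubiquitinase gene and the nearest before Pim2, had log2 levels of 8.80, 8.90 and 9.09 with CHIR99021 and 9.13, 9.02 and 8.99 with XAV939, groups that overlapped. Slc35a2, a UDP-galactose transporter gene and the nearest after it, had 7.05, 7.21 and 7.05 with CHIR99021 and 7.17, 7.09 and 7.16 with XAV939, which also overlapped. All 6 neighbours had differences between -0.12 and -0.036, and none passed by limma (smallest adjusted p = 0.409).

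Pim1 is flanked by Pi16, Mtch1 and Fgd2 and by Tmem217, Tbc1d22b and Ccdc167, whose differences ran from -0.034 to 0.15 (smallest adjusted p = 0.219). Pim3 is flanked by Brd1, Alg12 and Creld2 and by Ttll8, Mlc1 and Mov10l1, with differences from -0.18 to 0.082 (smallest adjusted p = 0.269). Of the 18 neighbours of the family 0 passed in limma, and 1 had an unadjusted p under 0.05. Gene order was taken from the RefSeq table of GRCm38.p6.

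**Figure D4:**
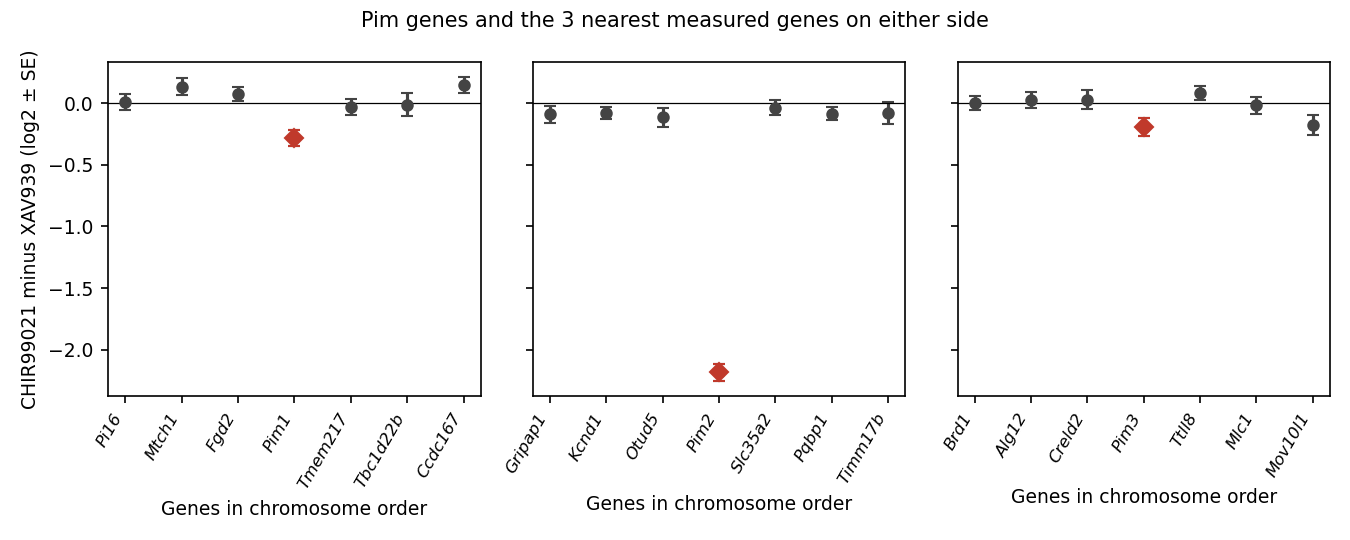
Log2 difference, CHIR99021 minus XAV939, with its SE, for each Pim gene (red diamonds) and the 3 nearest measured genes on either side (grey circles) in chromosome order. Pim2 lies at -2.18 between neighbours at -0.12 to -0.036.

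Genes of the cytokine pathway that feeds the Pim genes moved both ways. The list covered LIF, receptors for it or related cytokines, JAKs, STATs, their inhibitors and signalling partners. Of 19 measured genes, 3 rose and 3 fell (31.6%, against 9.65% of all genes). The list median was 0.10, where that of all genes was 0.0066. Jak2, a receptor-bound kinase that activates STATs, rose by 0.90 ± 0.07 (limma adjusted p = 1.71e-05), with means of 6.83 with CHIR99021 and 5.93 with XAV939. Il6ra, the interleukin-6 receptor chain, rose by 0.66 ± 0.09, and Lif itself by 0.23 ± 0.05. Socs2, an inhibitor induced by STATs, fell by 0.56, Pias3, an inhibitor of STAT3, fell by 0.37, and Lifr, the LIF receptor, fell by 0.21. Stat3 differed by 0.12 ± 0.06 (adjusted p = 0.358). The call of Lif was lost without any 1 of the CHIR99021 arrays or XAV939 replicate 2 (adjusted p = 0.0548 to 0.102), and that of Lifr without replicate 1 or 2 of CHIR99021 or 2 or 3 of XAV939 (0.0965 to 0.165).

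Other genes known as STAT3 targets in embryonic stem cells moved both ways. Of 16 measured, 5 rose and 2 fell (43.8%, against 9.65% of all genes), with a list median of 0.14. At an adjusted p of 0.01 the counts were 2 and 2, and with replicate 2 or 3 of either treatment left out they were 3 and 2. Tfcp2l1, a transcription factor of naive pluripotency, rose by 1.38 ± 0.05 (adjusted p = 1.81e-07), and Klf4, a Krüppel-like factor of the same network, by 0.81 ± 0.07. Gbx2, a homeobox gene, rose by 0.33 ± 0.08, Nr0b1, an orphan nuclear receptor, by 0.26 ± 0.05 and Bcl2l1, which encodes the survival factor BCL-XL, by 0.23 ± 0.05. Myc, a growth-promoting transcription factor, fell by 0.68 and Mcl1, a short-lived survival factor, fell by 0.39. Socs3, the feedback inhibitor of this pathway, differed by 0.13 ± 0.07 (adjusted p = 0.346). Gbx2 lost its call without replicate 1 or 3 of CHIR99021 or 2 or 3 of XAV939 (0.0597 to 0.112), Bcl2l1 without replicate 2 or 3 of either treatment (0.0708 to 0.107) and Nr0b1 without CHIR99021 replicate 2 (0.0551).

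Of 11 measured transcription factors known to regulate a Pim gene in some cell type, Rela rose and Myb fell, and 9 did not pass. That is 18.2% called, against 9.65% of all genes, with a list median of 0.12. Rela, a subunit of NF-κB, rose by 0.29 ± 0.07 (adjusted p = 0.0334), a call lost without replicate 1 or 3 of CHIR99021 or 2 or 3 of XAV939 (0.0577 to 0.11). Myb, a proto-oncogene of blood progenitors, fell by 0.59 (adjusted p = 3.80e-04). With XAV939 replicate 1 left out, 2 of these factors were higher and 2 lower.

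Genes for reported PIM substrates moved both ways as well. Of 33 measured, 4 rose, 6 fell and 23 did not pass (30.3% called, against 9.65% of all genes, median -0.043). Runx1, a transcription factor of blood formation, rose by 0.92 ± 0.06 (adjusted p = 4.65e-06), Irs1, an insulin receptor adaptor, by 0.34 ± 0.07, and Cdc25c, the phosphatase that starts mitosis, by 0.29 ± 0.06, beside Rela. The largest decreases were those of Myc (-0.68 ± 0.07), the drug transporter Abcg2 (-0.61 ± 0.08), Myb (-0.59 ± 0.07) and Foxo1, a transcription factor restrained by AKT (-0.43 ± 0.07). These are transcript levels and give no measure of phosphorylation.

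Kinases related to the family by sequence or by substrates mostly did not pass, but neither did most genes. PIM kinases belong to the CAMK group, from which 50 other kinases were listed and not the whole group. Of the 49 measured, 1 rose and 7 fell (16.3% called, against 9.65% of all genes). The list median was -0.029. The largest decreases were those of Camkv, a pseudokinase (-0.71 ± 0.07), Dapk1, a death-associated kinase (-0.66 ± 0.06), its relative Stk17b (-0.46 ± 0.07) and Hunk (-0.34 ± 0.07). Nuak2, an AMPK-related kinase, rose by 0.26 ± 0.07 (adjusted p = 0.0341) and lost the call without any 1 of the CHIR99021 arrays or XAV939 replicate 1 or 2 (0.0605 to 0.125). With CHIR99021 replicate 1 or 2 left out, 0 of the listed kinases rose and 5 fell. No listed CAMK group gene had a difference as large as that of Pim2. Since the family was selected because Pim2 was among the lowest of all genes, nothing is read from this.

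Among 13 measured genes for AKT, SGK, RSK and mTOR kinases and their partners, which share substrates with PIM kinases, 1 rose and 1 fell. That is 15.4%, against 9.65% of all genes, with a list median of -0.013. Akt2 rose by 0.28 ± 0.07 (adjusted p = 0.0371), a call lost without replicate 2 or 3 of either treatment (0.0979 to 0.139). Rps6ka5, a stress- and mitogen-activated kinase of chromatin, fell by 0.39 (adjusted p = 0.00978), a call lost without CHIR99021 replicate 2 (0.0552). Without that array neither gene passed.

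In the BCL2 family, where PIM kinases act through BAD, 2 of 18 measured genes rose and 3 fell (27.8%, against 9.65% of all genes). The list median was -0.0024. Bcl2l11, which encodes the pro-apoptotic protein BIM, was 7.73 with CHIR99021 and 8.93 with XAV939 and fell by 1.20 (adjusted p = 5.19e-07). Mcl1 fell by 0.39 and Bbc3, the pro-apoptotic gene PUMA, fell by 0.19. Bid, another pro-apoptotic gene, rose by 0.44 ± 0.05 and Bcl2l1 by 0.23 ± 0.05. The call of Bbc3 was lost without any 1 of the 6 arrays (0.0552 to 0.138), and that of Bcl2l1 as given above. Leaving out CHIR99021 replicate 3 or XAV939 replicate 2 or 3 gave 1 higher and 2 lower.

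Listed genes of the primed epiblast, the later pluripotent state in which Pim2 is known to be high, were mostly lower with CHIR99021. Of 14 measured, 11 were lower (78.6%, against 4.34% of all genes) and 0 higher, with a list median of -0.59. Otx2 was 5.62 with CHIR99021 and 7.76 with XAV939, and the de novo DNA methyltransferase gene Dnmt3a was 8.10 with CHIR99021 and 9.60 with XAV939 (-1.50 ± 0.07). Zic5, a zinc finger gene, fell by 0.97 and Dnmt3b, another de novo methyltransferase, fell by 0.96. The list was drawn up with earlier results of these arrays known, so its counts describe the listed genes and not the whole state. Within it, Otx2 alone came near Pim2 in size. The 3 that did not pass were Foxd3, Sox3 and Tead2, at -0.29 ± 0.09, -0.050 ± 0.073 and -0.012 ± 0.090.

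**Figure D5:**
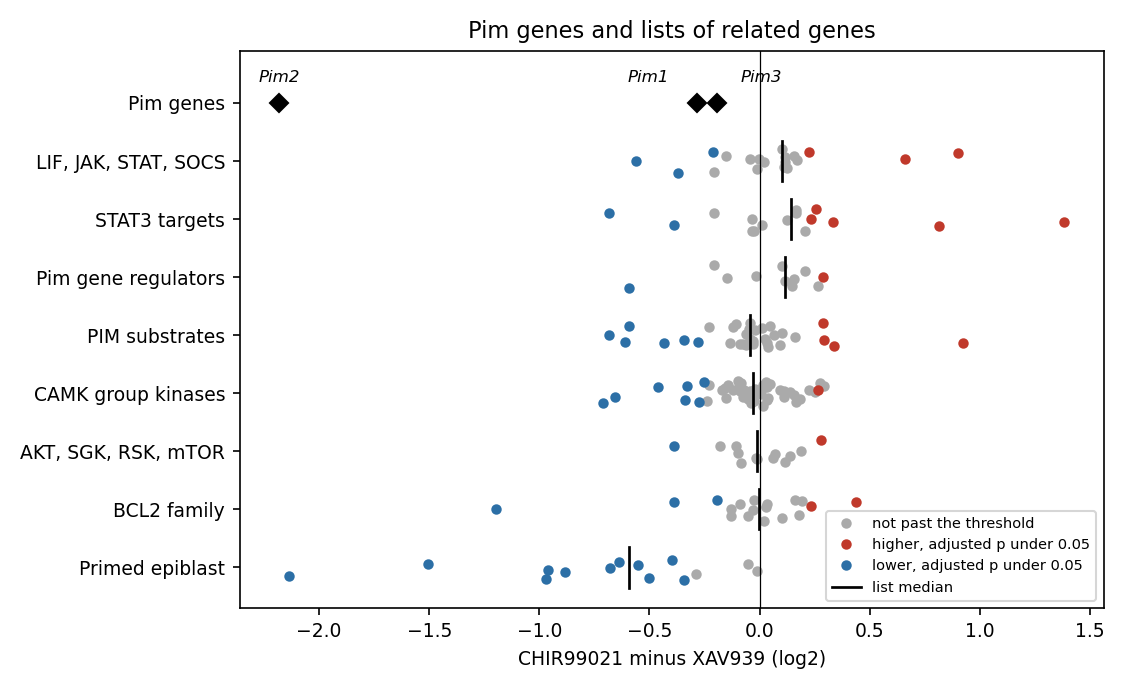
Log2 difference, CHIR99021 minus XAV939 (horizontal axis), of the Pim genes (black diamonds) and of the measured members of 8 gene lists (circles; red, higher and blue, lower at an adjusted p under 0.05; grey, not past). Black lines mark list medians, which lie between -0.043 and 0.14 except for the primed epiblast list at -0.59.

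By Pearson correlation over the 6 arrays, the named genes most like Pim2 were Ugt8a, a ceramide galactosyltransferase (r = 0.999), Ina, the neuronal filament protein α-internexin (r = 0.997), and Otx2 (r = 0.997). Ugt8a was at 6.35, 6.46 and 6.41 with CHIR99021 and at 7.17, 7.16 and 7.12 with XAV939, and Ina was at 8.47, 8.52 and 8.53 with CHIR99021 and at 9.37, 9.44 and 9.39 with XAV939. Their differences were -0.74 ± 0.05 and -0.89 ± 0.05, smaller than that of Pim2.

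Most like Pim1 were Notch1, the Notch receptor (r = 0.998), Dusp9, a phosphatase of ERK kinases (r = 0.997), and Cnksr3 (r = 0.994). Dusp9 had 9.19, 9.16 and 9.33 with CHIR99021 and 9.69, 9.50 and 9.54 with XAV939, so that, as for Pim1, the highest array was XAV939 replicate 1 and the highest of its group was CHIR99021 replicate 3. Most like Pim3 were Pde4dip (r = 0.990), Zfp414 (r = 0.984) and Mir543 (r = 0.983), of which none passed, with differences of -0.041 ± 0.049, -0.15 ± 0.06 and -0.20 ± 0.06. These correlations rest on arrays in 2 treatments and were picked as the highest of all genes, so they describe the pattern and carry no p-value.

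Treatment and cell identity were checked with other genes. Axin2, a feedback target of β-catenin, was at 7.48, 7.41 and 7.54 with CHIR99021 and at 5.46, 5.79 and 5.46 with XAV939 (1.91 ± 0.09, adjusted p = 5.43e-07). The transcripts of Ctnnb1, Gsk3a and Gsk3b differed by 0.018 ± 0.054, 0.00032 ± 0.07827 and 0.12 ± 0.08 (adjusted p = 0.922, 0.999 and 0.429). The 10 markers of embryonic stem cells had mean log2 levels of 10.52 to 10.55 with CHIR99021 and 10.51 to 10.55 with XAV939, and the level of the list hides members that moved in opposite directions. Of the 10, 3 rose and 3 fell (60%, against 9.65% of all genes), or 2 and 1 with CHIR99021 replicate 1 or XAV939 replicate 2 left out. Esrrb, an orphan nuclear receptor of naive cells, rose by 0.60 ± 0.06 and Nanog by 0.49 ± 0.05, while Tdgf1, a Nodal co-receptor, fell by 0.63.

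Genes listed as markers of other cells were also described, and some of them passed the threshold. Of 16 markers of feeder fibroblasts, 6 rose and 1 fell (43.8%, against 9.65% of all genes). The largest differences were in Col1a1 (1.05 ± 0.05) and Pdgfrb (0.59 ± 0.05), and the one that fell was Mmp2 (-0.39 ± 0.07). Among the 9 that did not pass were Dcn (0.025), Lum (0.061) and Postn (0.034), and 6 of the 16 had levels below the median of all probe sets. The mean log2 level of the list was 6.09 to 6.14 with CHIR99021 and 5.86 to 5.95 with XAV939. Of 8 trophectoderm markers 5 rose and 0 fell (62.5%), with mean levels of 8.0 to 8.09 with CHIR99021 and 7.29 to 7.39 with XAV939. Among those that rose were Cdx2 (1.63 ± 0.10), Krt18 (1.19 ± 0.07), Eomes (1.18 ± 0.08) and Krt8 (0.93 ± 0.07). Gata3 (0.26), Hand1 (0.069) and Elf5 (0.014) did not pass. Krt8 and Krt18 were high in both groups, with means of 12.03 and 11.07 with CHIR99021 and 11.10 and 9.87 with XAV939. Their levels therefore do not single out trophectoderm cells. Of 8 primitive endoderm markers 1 rose and 1 fell (25%; 0 lower with replicate 1 or 2 of either treatment left out), at 5.62 to 5.71 with CHIR99021 and 5.60 to 5.77 with XAV939. Of 6 measured stress and p53 genes 1 rose and 2 fell (50%), at 8.46 to 8.51 with CHIR99021 and 8.58 to 8.59 with XAV939. Of 6 measured markers of blood cells, where Pim genes are abundant, 0 passed in limma, and their mean levels, 4.99 to 5.04 with CHIR99021 and 5.0 to 5.10 with XAV939, were below the median of all probe sets. RMA gives no value of 0 and no detection call was made. The part of these cell types in the differences of the Pim genes was not tested.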

How the data were processed

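The deposited table holds log2 expression values of 34760 probe sets on 6 one-colour arrays, made by the authors with RMA, per the submitters' processing notes. RMA corrects background, normalises arrays by quantiles and summarises probes, which compresses differences of weakly expressed genes. The version of RMA and any genome build used are not given in the sources at hand, and the number of arrays limits the precision. Arrays were grouped by the treatment in their titles. The platform annotation named 1 gene for 21640 probe sets, several for 1321 and none for 11799. Each gene was represented by its probe set with the highest mean, which gave 19937 genes. Cdkn1a and other list genes with no such probe set were not analysed here.

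CHIR99021 minus XAV939 was fitted with limma 3.58.1 (lmFit, eBayes) in R 4.3.3, with Benjamini-Hochberg adjustment over all genes and a threshold of 0.05. The procedure was run on simulated data with planted differences. These were independent normal values with variances drawn from the fit's own model, so the run does not cover effects shared across an array. Figures were drawn with matplotlib 3.10.9.

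The members, the 8 pathway lists and the 6 marker lists were chosen with earlier results of these data known. The pathway lists hold 171 different genes, 158 measured, and 15 genes stand in 2 or more. From each pathway list and direction the text names every member past the threshold, or the 4 with the largest difference where more than 5 passed. It also names 3 genes most like each Pim gene, leaving out predicted genes, 3 measured neighbours on either side, the genes ranked around Pim2, and Axin2, Ctnnb1, Gsk3a and Gsk3b. Stat3, Socs3, Foxd3, Sox3, Tead2 and the genes named from marker lists were added after their values were seen. Alternatives were other scalings, a filter on low levels, other variance models, a stricter threshold, the replicate number as a block, the mean of a gene's probe sets and leaving out each array.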

Additional observations from a re-analysis of the deposited data

How the results depend on the processing

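The Pim2 difference was -2.25 to -2.14 over 15 alternatives, that of Pim1 -0.34 to -0.23 and that of Pim3 -0.25 to -0.11. Of these alternatives, the filter on low levels, the other variance models and the replicate block cannot change a difference of means. The mean of a gene's probe sets cannot either, as each Pim gene has 1. The ranges therefore come from the scalings and from arrays left out. With single arrays left out, Pim2 differed by -2.25 to -2.15, Pim1 by -0.34 to -0.23 and Pim3 by -0.25 to -0.11. With the omission of both CHIR99021 replicate 3 and XAV939 replicate 1, an alternative chosen after seeing the data, they differed by -2.14, -0.29 and -0.11, and 2325 genes and 50 list genes passed. The count of genes past the threshold, 1924, was 639 with ordinary least squares, where variances are not shared between genes, 1118 when the threshold was 0.01, and between 1254 (CHIR99021 replicate 2 left out) and 2247 (XAV939 replicate 1 left out) with single arrays left out. Of the pathway lists' measured genes, 46 passed, against 18 with ordinary least squares and 34 to 49 with single arrays left out. Deviations of same-numbered arrays from their group means correlated at -0.096, 0.060 and -0.14 across genes for replicates 1, 2 and 3. In groups of 3 such deviations depend on each other, so these values cannot settle whether the numbers pair arrays. The main fit used no pairing. With the replicate number as a block, 1578 genes and 38 list genes passed. The Pim differences were the same, as the balanced design requires, with standard errors of 0.069 for Pim1, 0.059 for Pim2 and 0.070 for Pim3. Within single lists, ordinary least squares called 2 PIM substrates where limma called 10, 2 CAMK group kinases against 8, 6 primed epiblast genes against 11, 2 LIF, JAK and STAT genes against 6, 4 STAT3 targets against 7, 4 BCL2 family genes against 5, and 0 against 2 both for Pim gene regulators and for the AKT, SGK and RSK list. With single arrays left out, the lowest counts were 7 for substrates, 5 for CAMK group kinases and 3 for embryonic stem cell markers. Scanner files were not used here, so signal over background was not measured.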
